A study of Arabidopsis thaliana with 12 samples.

Results

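The genes described here are 24 Arabidopsis genes of named membrane transporter families, each read by its own probe set, among 13350 genes that had a single-gene probe set. They were picked by symbol: families of ABC transporters, nitrate, phosphate, ammonium, amino acid, oligopeptide, purine, sugar and metal transporters, cation exchangers, potassium transporters, aquaporins and cyclic nucleotide-gated channels were sought, 21 families in all. Only 5 of the 21 had a member that the gene names used here tie to a single probe set. They were SWEET with 14 genes, CHX with 7, and MTP, NRT and PUP with 1 each, so the results are in the main results on SWEET sugar transporters and CHX cation exchangers. The other 16 families were not analysed here.

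The cultures were Arabidopsis Col-0 seedlings, grown to day 9 in shaken liquid medium with sucrose, then held in darkness for 24 h and kept dark throughout the treatment. The 4 groups were 10 µM oligomycin for 1 h, its ethanol control at 1 h, 10 µM oligomycin for 4 h, and its ethanol control at 4 h, with 3 arrays each that the labels call biological replicates. Oligomycin blocks the proton channel of the mitochondrial ATP synthase. All groups therefore shared the dark period and the solvent, and whole seedlings were extracted, so fewer cells of a type and less RNA per cell cannot be told apart.

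SWEET proteins are small membrane pores that let sugars pass down their gradient without using energy. In Arabidopsis one branch of the family moves mainly sucrose across the plasma membrane, others move mainly hexoses, and a few sit in the vacuole membrane. CHX proteins exchange potassium or related cations for protons at inner membranes or the plasma membrane, and many are known from pollen. Proton pumps build the gradient on which such exchangers, and sugar or nitrate symporters, depend.

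Levels are linear probe set intensities, and means carry the SD of 3 arrays. A change is the oligomycin mean minus the ethanol mean of log2(intensity + 16). The added 16 makes the changes of dim genes look smaller than they are. "Rose" and "fell" are used only where limma's p, adjusted by Benjamini-Hochberg over all 22746 tested probe sets, was under 0.05. As a guide to background, 27 control probe sets for bacterial genes never read above 15 on any of the 12 arrays. Their median reading was 1.5 and their 95th percentile 7.37, so 15 is their extreme. Of the 24 members, 8 read above 15 on all arrays, 11 on some and 5 on none.

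At 4 h of oligomycin, 3 members had risen and 6 had fallen, while no member was called at 1 h. CHX20, SWEET8 and SWEET2 rose. SWEET11, SWEET17, SWEET1, SWEET10, SWEET13 and CHX16 fell. The share of members called, 37.5%, lay near the 36.7% of all probe sets called at 4 h. The same held by direction, with 12.5% of members rising against 11.4% of all probe sets, and 25% falling against 25.3%, so the counts themselves set nothing apart about transporters. With each array centred on its median, 4 members rose and 4 fell, where 3844 of the 22746 probe sets rose and 3423 fell.

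**Figure D1:**
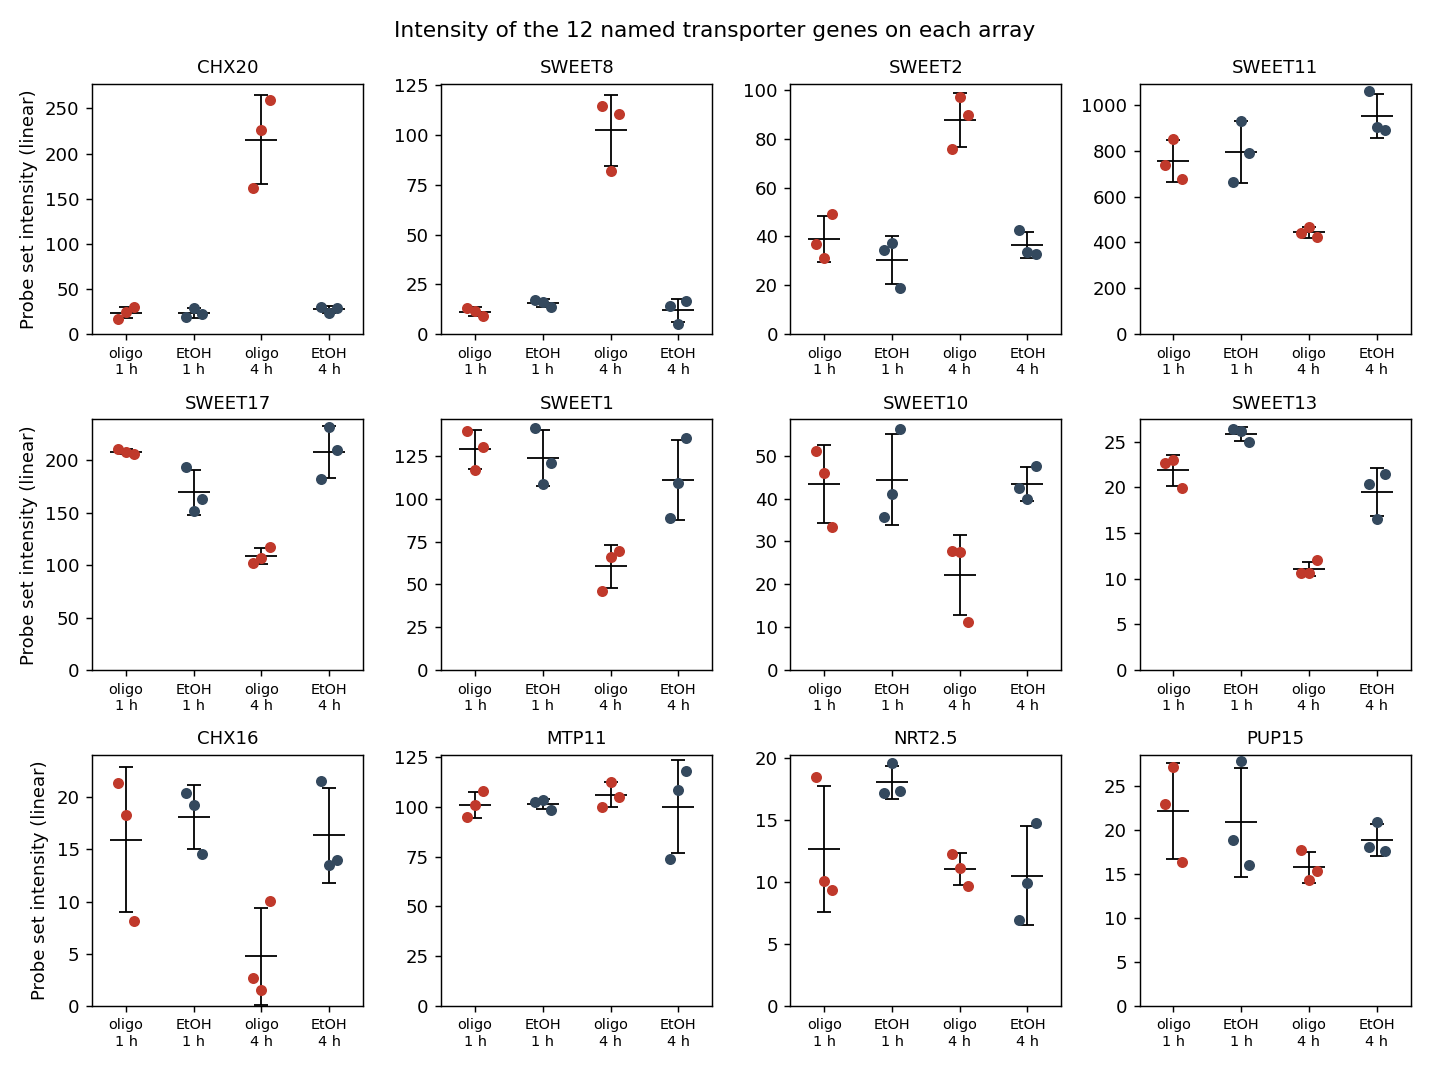
Linear intensity (y axis, from 0) of 12 members on each array, by group (x axis); points are single arrays, the horizontal mark is the mean and the bars are the SD of 3 arrays. At 4 h the oligomycin arrays of CHX20, SWEET8 and SWEET2 lie above every ethanol array of that time, and those of SWEET11, SWEET17, SWEET1, SWEET10, SWEET13 and CHX16 below.

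CHX20 (AT3G53720), a cation/proton exchanger known from the endosomes of guard cells, read 161.5, 225.7 and 259.2 on the oligomycin arrays at 4 h, against 30.2, 23.3 and 28.6 on the ethanol arrays. The mean was 215 ± 49.6 in oligomycin and 27.4 ± 3.61 in ethanol, a 7.87-fold higher intensity (log2 change 2.40, 95% interval 2.03 to 2.76, adjusted p = 2.97e-07). Only 255 of the 22746 probe sets had a larger rise at that time. At 1 h CHX20 read 16.8, 25.0 and 29.5 in oligomycin and 18.6, 29.0 and 22.4 in ethanol, and the groups overlapped.

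SWEET8 (AT5G40260), also called RPG1 and known as a hexose pore needed for pollen wall formation, read 114.5, 82.0 and 110.4 in oligomycin at 4 h and 14.1, 5.1 and 16.4 in ethanol. All 3 oligomycin arrays stood far above the bacterial controls. Of the 3 ethanol arrays 2 lay below 15, and the other, at 16.4, was only just above it. With every reading below 15 raised to 15, SWEET8 was at least 6.55-fold higher in oligomycin (fitted log2 change 2.10, adjusted p = 5.27e-07). At 1 h the same gene read 13.1, 11.7 and 8.9 in oligomycin and 17.3, 16.0 and 13.5 in ethanol. These values lay around the highest bacterial control reading of 15, and the gene was not called (log2 change −0.22, adjusted p = 0.563).

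SWEET2 (AT3G14770), a glucose pore of the vacuole membrane known to limit sugar loss from roots, read 75.8, 97.3 and 89.9 in oligomycin at 4 h and 42.5, 33.5 and 33.0 in ethanol. It was 2.41-fold higher (log2 change 0.99, 95% interval 0.62 to 1.35, adjusted p = 5.09e-04), and the groups did not overlap. At 1 h it averaged 39.0 ± 9.27 in oligomycin and 30.2 ± 9.90 in ethanol, a difference within the spread of the arrays (adjusted p = 0.502).

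SWEET11 (AT3G48740), a sucrose pore of leaf phloem parenchyma that acts in phloem loading, read 440.1, 469.2 and 421.3 in oligomycin at 4 h and 1060.2, 902.7 and 890.0 in ethanol. Intensity in ethanol was 2.14 times that in oligomycin (log2 change −1.07, 95% interval −1.35 to −0.79, adjusted p = 3.42e-05). All 3 oligomycin arrays at 4 h also lay below every array of 1 h, where the gene read 736.2, 852.4 and 675.6 in oligomycin and 663.6, 930.9 and 788.3 in ethanol.

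SWEET10 (AT5G50790) and SWEET13 (AT5G50800), which belong to the same sucrose branch and are neighbouring loci, fell as well. SWEET10 read 27.7, 27.5 and 11.3 in oligomycin at 4 h and 42.5, 39.9 and 47.7 in ethanol (log2 change −0.67, adjusted p = 0.0131). The third oligomycin array was the lowest, and without it the log2 change was −0.44 and the adjusted p was 0.0527. SWEET13, known to carry sucrose and gibberellin, read 10.6, 10.6 and 12 in oligomycin and 20.4, 16.5 and 21.5 in ethanol (log2 change −0.39, adjusted p = 0.00238). Its oligomycin readings all lay below 15, so it was at least 1.29-fold lower there. After median centring of the arrays the change of SWEET13 was −0.23 (adjusted p = 0.0534).

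The other measured genes of that branch were not called, and SWEET14 and SWEET9 were dim. SWEET14, a close relative of SWEET13, read between 2.2 and 12.7 over all 12 arrays. SWEET9, the sucrose pore of nectaries, averaged 11.2 ± 1.79 in oligomycin at 4 h and 12.3 ± 1.68 in ethanol. SWEET15, listed in the gene table as SAG29 and so outside the symbol rule, averaged 26.7 in oligomycin and 33.5 in ethanol (log2 change −0.23, adjusted p = 0.336). It read above 15 on 11 of the 12 arrays.

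SWEET17 (AT4G15920), a fructose pore of the vacuole membrane, read 102.1, 107.2 and 117.5 in oligomycin at 4 h and 182.4, 231.4 and 209.8 in ethanol. Intensity in ethanol was 1.91 times that in oligomycin (log2 change −0.84, 95% interval −1.07 to −0.61, adjusted p = 5.22e-05). At 1 h the order was the opposite, with 210.6, 207.7 and 206.1 in oligomycin and 193.7, 152.0 and 162.9 in ethanol. All 3 oligomycin arrays of 1 h lay above all 3 ethanol arrays, yet that difference was not called (log2 change 0.28, adjusted p = 0.218).

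SWEET16, the other vacuolar sugar pore of the same branch, averaged 74.1 ± 9.71 in oligomycin at 4 h and 79.5 ± 16.6 in ethanol. The arrays overlapped, and the interval of its change ran from −0.42 to 0.27 on the log2 scale (adjusted p = 0.777). Thus of the 3 measured vacuole membrane pores named here SWEET2 rose, SWEET17 fell and SWEET16 was not called.

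SWEET1 (AT1G21460), a glucose pore of the plasma membrane, read 46.0, 66.1 and 69.5 in oligomycin at 4 h and 88.8, 109.3 and 135.4 in ethanol. The groups did not overlap, and intensity in ethanol was 1.84 times that in oligomycin (log2 change −0.73, 95% interval −1.07 to −0.39, adjusted p = 0.00249). At 1 h it averaged 129 ± 11.6 in oligomycin and 124 ± 16.6 in ethanol.

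The remaining hexose-branch genes were not called at either time, and all but SWEET3, which read above 15 on every array, were dim. SWEET3 read between 23.4 and 47.4 over the 12 arrays, SWEET4 between 12 and 24, SWEET6 between 10.4 and 29.1 and SWEET7 between 0.3 and 12.7. SWEET5, named AtVEX1 in the gene table and known from the vegetative cell of pollen, averaged 3.90 in oligomycin at 4 h and 9.97 in ethanol, never above 15 on any array. Taking these in, 16 of the 17 SWEET genes of the gene table were measured, and 2 rose and 5 fell at 4 h, against 11.4% and 25.3% of all probe sets. The median change of the 14 SWEET members at 4 h was −0.15, against −0.10 over all probe sets. After median centring of the arrays it was 0.01, against 0.06 over all probe sets. The sign of the family median thus depended on the scaling, and no direction is given for the family as a whole.

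**Figure D2:**
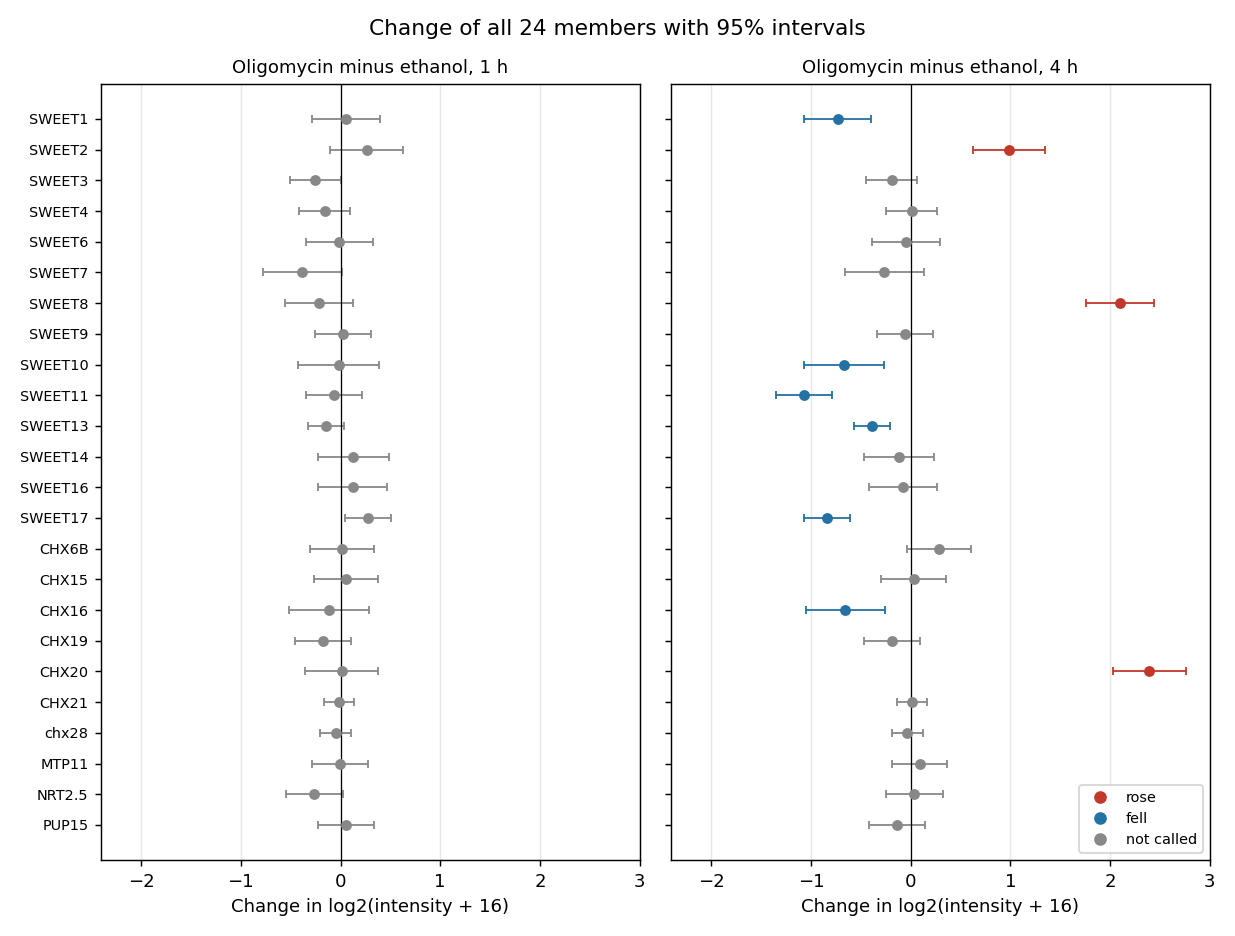
Change in log2(intensity + 16), oligomycin minus ethanol, of all 24 members at 1 h (left) and 4 h (right); points are the fitted changes, bars their 95% intervals, red marks a rise, blue a fall and grey no call. At 1 h every point is grey, and at 4 h the rises of CHX20 (2.40) and SWEET8 (2.10) lie apart from the falls, which reach −1.07 for SWEET11.

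The gene table names 23 CHX genes by symbol. Among the 7 that were measured only CHX20 and CHX16 were called. CHX16 (AT1G64170) read 2.7, 1.5 and 10.1 in oligomycin at 4 h and 21.6, 13.5 and 14 in ethanol (log2 change −0.65, adjusted p = 0.0136). All 3 oligomycin arrays and 2 of the 3 ethanol arrays lay below 15, which gives no fold to report. The call was lost without the first ethanol replicate of 4 h (−0.54, adjusted p = 0.0618), without the first oligomycin replicate (−0.59, adjusted p = 0.0508) and without the second (−0.54, adjusted p = 0.0607). After median centring of the arrays the change was −0.49 (adjusted p = 0.055).

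The other measured CHX genes gave little signal. CHX15 read between 1.2 and 8.4 over the 12 arrays, CHX21 between 0.2 and 1.1 and chx28 between 0.3 and 2.0. CHX19 averaged 9.03 ± 0.95 in oligomycin at 4 h and 12.5 ± 1.82 in ethanol; its groups did not overlap, but it was not called (adjusted p = 0.312). CHX6B averaged 11.1 ± 3.65 in oligomycin and 6.30 ± 3.30 in ethanol (log2 change 0.29, adjusted p = 0.16), and counted as a rise with arrays centred on their medians (0.45, adjusted p = 0.0341). At these levels a fall in the transcript was hardly detectable. A large rise could be seen, as SWEET8 rose from a mean of 11.9 in ethanol at 4 h.

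MTP11, NRT2.5 and PUP15 were not called in any comparison. MTP11 (AT2G39450), a manganese carrier of Golgi-like compartments, read 100.1, 112.6 and 105.2 in oligomycin at 4 h and 73.8, 108.5 and 118.1 in ethanol. Its change had an interval of −0.19 to 0.37 (adjusted p = 0.656). NRT2.5 (AT1G12940), a high-affinity nitrate transporter of nitrogen-starved plants, read 12.3, 11.1 and 9.7 in oligomycin and 6.9, 9.9 and 14.8 in ethanol. PUP15 (AT1G75470), of the purine permease family, averaged 15.8 ± 1.75 in oligomycin and 18.9 ± 1.78 in ethanol. Over the 15 members not called at 4 h, changes lay between −0.26 and 0.29 and their 95% intervals between −0.66 and 0.61, and 5 of the 15 never read above 15.

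At 1 h no member passed limma's test, where 3.44% of all probe sets did (2.3% as rises and 1.14% as falls). The smallest adjusted p was 0.218, for SWEET17, which was also the only member with an unadjusted p under 0.05. Member intervals at 1 h lay between −0.78 and 0.62 on the log2 scale. All 3 oligomycin arrays were above all 3 ethanol arrays for SWEET17 and below them for SWEET8, SWEET13 and chx28, or 1 and 3 of 24 members, against 6.85% and 12.9% of all probe sets. At 4 h the corresponding counts were 3 and 7, against 14.5% and 32.3%.

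The effect of oligomycin differed between the times for 5 members, 20.8% against 17.8% of all probe sets, with 2 members upward and 3 downward against 7.2% and 10.6% of all probe sets. In this comparison, the effect at 4 h minus the effect at 1 h, CHX20 gave 2.38 (adjusted p = 3.34e-05) and SWEET8 gave 2.31 (adjusted p = 2.53e-05). SWEET17 gave −1.12 (adjusted p = 2.99e-04), SWEET11 −1.005 (adjusted p = 0.00238) and SWEET1 −0.79 (adjusted p = 0.0264). For SWEET1 the call did not hold with quantile normalization (−0.67, adjusted p = 0.055) or median centring (−0.67, adjusted p = 0.0572), after scaling to the hybridisation controls (−0.63, adjusted p = 0.223) or with 1 added in place of 16 (−0.93, adjusted p = 0.0517). It was also lost without the second or the third ethanol replicate of 1 h, the third ethanol replicate of 4 h, the first or the third oligomycin replicate of 1 h, or the first oligomycin replicate of 4 h, with adjusted p of 0.0527 to 0.0636. For SWEET2 the difference was 0.72 and missed the threshold (adjusted p = 0.0529). It passed under 8 of 23 alternatives. These were a robust prior with a trend (adjusted p = 0.0394), quantile normalization (0.0347), median centring (0.0277), 32 added in place of 16 (0.0357) and the dimmest 40% left out (0.0225). The others were the fits without the third ethanol replicate of 1 h (0.00951), the third oligomycin replicate of 1 h (0.0308) or the first oligomycin replicate of 4 h (0.0496).

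In ethanol alone, 4 h against 1 h, no member was called by limma, and 0.00879% of all probe sets were. The smallest adjusted p of a member was 0.288, 3 members had an unadjusted p under 0.05, and intervals lay between −0.66 and 0.56. The contrasts at 4 h, for the change of the effect and in ethanol over time share the ethanol arrays of 4 h. The change of the effect also uses the oligomycin arrays of 4 h and all arrays of 1 h. Values of one gene in these contrasts are therefore not separate observations.

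For the wider set of transporters, proton pumps, mitochondrial carriers and many further transporter families were sought by symbol. Only 9 genes with a single-gene probe set were found, of pumps, vacuolar sugar carriers and metal carriers. None of the 9 was a mitochondrial carrier. At 4 h 4 of the 9 fell and 1 rose, against 25.3% and 11.4% of all probe sets. At 1 h none was called, where 3.44% of all probe sets were. VHA-A1, a membrane subunit of the proton pump of the trans-Golgi network, read 42.3, 63.4 and 54.1 in oligomycin and 113.7, 97.7 and 108.2 in ethanol (log2 change −0.83, adjusted p = 6.82e-05). Its vacuolar counterpart VHA-A2 changed by −0.46 (adjusted p = 0.0039, but 0.0936 after scaling to the hybridisation controls), and VHA-A3 by −0.24 (adjusted p = 0.144).

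The vacuolar monosaccharide carriers TMT1 and TMT2, which work against the gradient with the help of protons, both fell. TMT1 read 90.6, 116.4 and 113.3 in oligomycin at 4 h and 187.7, 177.4 and 210.1 in ethanol (log2 change −0.76, adjusted p = 1.44e-04), and TMT2 changed by −0.55 (adjusted p = 0.00715). TMT3 was not called. ZIP9, of the zinc transporter family, rose by 0.37 (adjusted p = 0.0499, but 0.0938 after scaling to the hybridisation controls).

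A further 20 transporter genes were found through synonyms in the gene table, chosen after the gene names had been read. They include SWEET5 and SWEET15, which were also counted above with the SWEET genes. At 4 h 6 of the 20 fell and 4 rose, where 25.3% of all probe sets fell and 11.4% rose. One of the falls, that of TAAC, a carrier of the chloroplast (log2 change −0.26, adjusted p = 0.0329), was not called after quantile normalization (0.0946), median centring (0.407) or scaling to the hybridisation controls (0.352). Among 11 genes of the NPF family, which holds nitrate, peptide and glucosinolate carriers, 5 fell and 1 rose, against 25.3% and 11.4% of all probe sets. AT2G26690 (NPF6.2) read 86.2, 102.2 and 79.5 in oligomycin and 373.1, 255.4 and 302.6 in ethanol (log2 change −1.62, adjusted p = 1.44e-06). AT3G21670 (NPF6.4), with 1 of its oligomycin arrays below 15, changed by −1.57 and AT1G68570 (NPF3.1) by −1.27.

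The glucosinolate importers GTR1 and GTR2 fell by 0.85 and 0.93 on the log2 scale. AT5G52050 (DTX50), known as an efflux carrier of abscisic acid, read 29.1, 39.8 and 31.9 in oligomycin and 14.8, 19.1 and 9.0 in ethanol and rose (adjusted p = 0.0034), with 2 of its ethanol arrays below 15. The organic cation transporters OCT4 and OCT5 rose by 0.59 and 0.48. Of the pumps and carriers outside the symbol rule, 29 in all, 51.7% were called at 4 h, with a median change of −0.24, against 36.7% and −0.10 over all probe sets. The median was −0.08 after median centring, where that of all probe sets was 0.06. After scaling to the hybridisation controls 12 of the 29 were called, 4 as rises and 8 as falls, against 15 in the main fit. All probe sets also gave fewer calls under that scaling: 2520 of 22746 rose and 3738 fell, against 2594 and 5751.

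**Figure D3:**
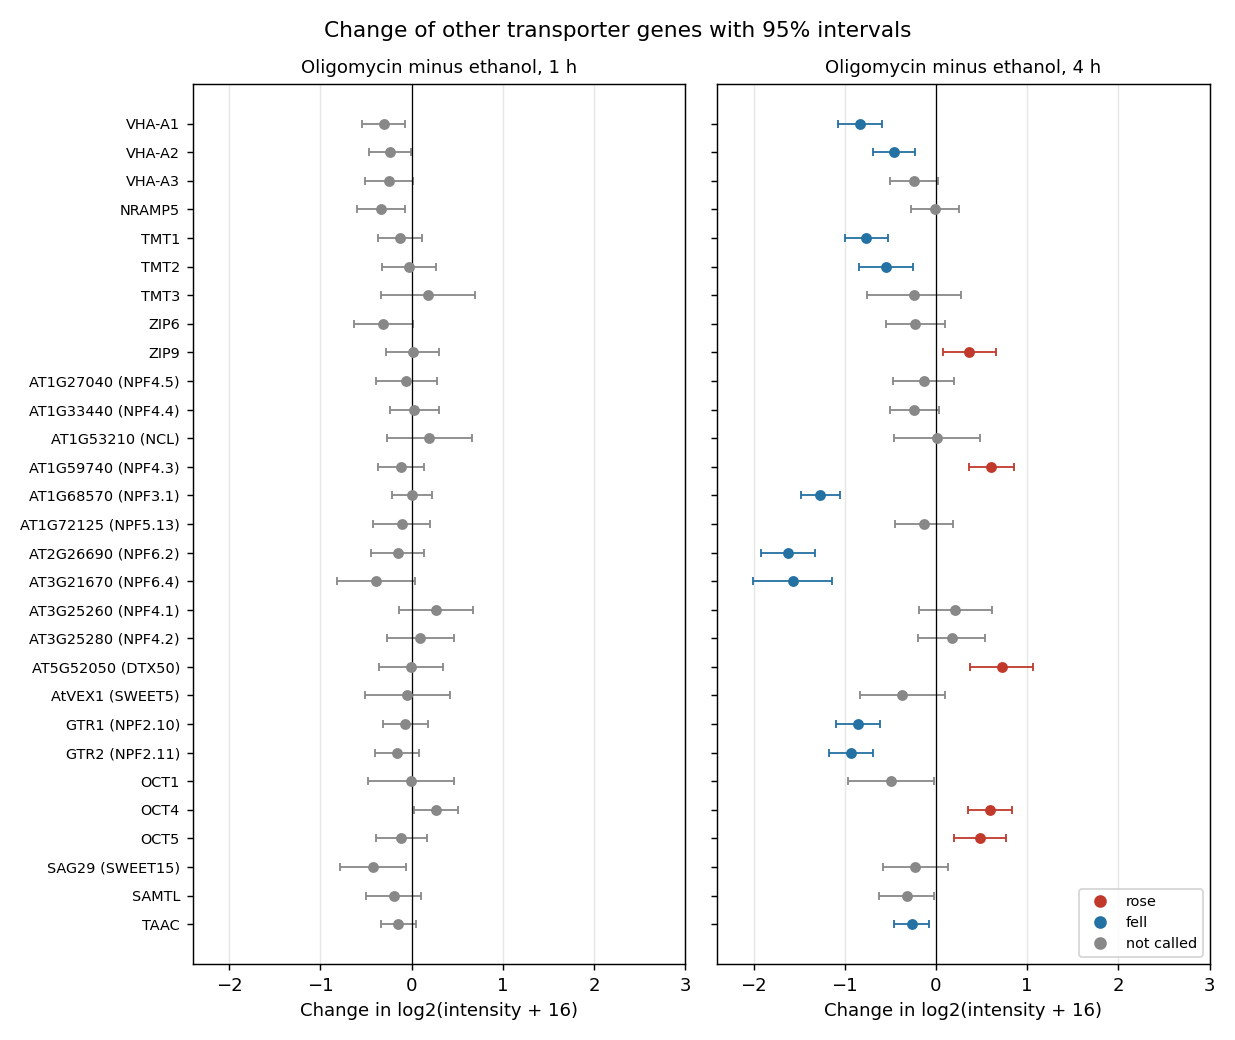
Change in log2(intensity + 16), oligomycin minus ethanol, of 29 transporter genes outside the symbol rule at 1 h (left) and 4 h (right); bars are 95% intervals, red marks a rise, blue a fall and grey no call. All points at 1 h are grey, and at 4 h the lowest are NPF6.2 (−1.62), NPF6.4 (−1.57) and NPF3.1 (−1.27).

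Among 7 measured organ markers 4 fell at 4 h and 3 were not called, where 25.3% of all probe sets fell. Of the 5 root markers 3 were measured: PYK10, a beta-glucosidase of roots, read 1604.1, 1686.0 and 1663.6 in oligomycin at 4 h and 2623.6, 2711.1 and 2856.8 in ethanol (log2 change −0.72, adjusted p = 3.92e-05). EXPA18, a root hair expansin, read 16.9, 13 and 12.5 in oligomycin and 32.7, 33 and 24.5 in ethanol and fell (adjusted p = 0.0075). EXPA7 read 8.2, 2.9 and 13 in oligomycin and 8.3, 35.1 and 18.8 in ethanol and was not called (adjusted p = 0.173). Both lay near or below the highest bacterial control reading in oligomycin at 4 h. None of the 6 green shoot markers or 3 seed markers first listed had a single-gene probe set, so LHCB4.1, LHCB4.2, PSAE-1 and RCA were taken after the names had been read. They averaged between 379 and 1400.3 in oligomycin at 4 h and between 618 and 1557 in ethanol, and LHCB4.2 and PSAE-1 fell (−0.67 and −0.47, with PSAE-1 not called after median centring or after scaling to the hybridisation controls). LHCB4.1 (−0.11, adjusted p = 0.61) and RCA (−0.25, adjusted p = 0.0917) were not called. The log2 ratio of 3' to 5' actin signal, a measure of RNA quality, was 1.68 to 1.90 in oligomycin at 4 h and 1.65 to 1.71 in ethanol. The same ratio for GAPDH was −0.147 to −0.046 in oligomycin and −0.059 to 0.037 in ethanol, lower where that of actin was higher, and the groups overlapped for both. The part of the markers and of RNA quality in the results on transporters was not tested.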

How the data were processed

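Array intensities were deposited as 1 table of 22810 probe sets and 12 arrays. The submitters' processing notes name RMA. The deposited intensity values were linear, held 166 zeros and had a 2% trimmed mean near 100 on every array, which is not the usual form of that method, so how they were made is not given in the sources used here. No detection calls, scan times or culture records were used, and array number limits the precision.

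After 64 control probe sets were left out, log2(intensity + 16) of 22746 probe sets was fitted with limma 3.58.1 in R 4.3.3 (4 group means, 8 residual and 4.14 prior degrees of freedom, two-sided moderated tests, with Benjamini-Hochberg adjustment within each contrast). The fit was checked on simulated data. Arrays of a group correlated with r of 0.975 to 0.993.

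Gene names came from the platform's annotation and a TAIR10.1 gene table, used for names and neighbours only: 13513 tested probe sets had 1 gene symbol, 503 several and 8730 none, and 13436 of the 13513 matched that table. Each member had 1 probe set, none of them ending in _s_at or _x_at. The members, the lists and the constant added before the log were chosen with earlier results of these data known. Named members were the largest called changes (up to 10 in each direction at 1 h, 12 at 4 h, and 5 each for the change of the effect and for ethanol over time), and the brightest member of each family over the ethanol arrays. All other genes were named after their values were seen. Promoter and protein sequences were not used here.

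The other settings tried were array weights, a fit to the compared arrays alone, the replicate number as a block, a robust prior with a trend, quantile normalization, median centring, hybridisation control scaling, an added 1 or 32, leaving out the dimmest 40%, a threshold of 0.01, a minimum log2 change of 1 and leaving out each array.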

Additional observations from a re-analysis of the deposited data

Results flagged for a closer look

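The effect of oligomycin on 5 named members differed between 4 h and 1 h by the test of the difference itself in limma. That was 20.8% of members, near the 17.8% of all probe sets called. The call of SWEET1 held under only 11 of 23 alternatives. On the log2(intensity + 16) scale, the effect at 4 h minus that at 1 h was 2.38 for CHX20, 2.31 for SWEET8, −0.79 for SWEET1, −1.005 for SWEET11 and −1.12 for SWEET17. The 3 oligomycin arrays of SWEET17 lay above the ethanol arrays at 1 h and below them at 4 h, though the difference at 1 h was not called (adjusted p = 0.218).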

How the results depend on the processing

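At 4 h 9 members were called, and between 8 and 9 when 1 array was left out. In those fits 2324 to 2721 of the 22746 probe sets rose and 4717 to 6113 fell, against 2594 and 5751 in the main fit. The member count was 9 with the replicate block, where 2584 of all probe sets rose and 5694 fell. It was 3 when a log2 change of at least 1 was also asked for (2 rises and 1 fall: CHX20, SWEET8 and SWEET11), a stricter rule by construction. Under that stricter rule 1082 of the 22746 probe sets rose and 605 fell. Leaving out the dimmest 40%, by the mean over all 12 arrays, kept 10 members and 7 calls. Of the 13647 probe sets kept, 2233 rose and 5384 fell. SWEET8 averaged 11.9 in ethanol at 4 h and passed this filter only through its oligomycin arrays of 4 h. Its call there is thus no separate check on brightness. Same-numbered oligomycin and ethanol arrays of one time had correlations of deviations between −0.061 and 0.097. For arrays of other numbers the highest value per oligomycin array was −0.0098 to 0.064. Arrays of 1 h and 4 h were not compared, so these values cannot settle whether same-numbered cultures were paired. No member was called at 1 h or in ethanol over time under any of the alternatives that were run. For the change of the effect between times, 4 to 6 members were called under them. Over all 22746 probe sets that contrast gave 1637 rises and 2406 falls in the main fit. With hybridisation control scaling it gave 1546 and 714, and with a log2 change of at least 1 it gave 761 and 387. The brightest probe set by ethanol arrays was not run apart, since each member has 1. No log2 change of a named member that was called turned its sign. With arrays centred on their medians, the change at 4 h had a median of 0.06 over every tested probe set, against −0.10, and falls made up 47.1% of all calls, against 68.9%; falls made up 60.6% after quantile normalization and 59.7% after scaling to the hybridisation controls. Dim members such as CHX16 and SWEET13 are limited by signal near or below the highest bacterial control reading.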
